A study of Mus musculus with 24 samples.

Results

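Genes of the motile cilium and of its axoneme were followed through 24 RNA sequencing libraries of neurons sorted from adult mouse cortex. The 74 members were taken by symbol from the 36528 genes listed. Of the members, 67 matched the family names Cfap (34 genes), Dnah (15), Rsph (7), Tekt (5), Spef (3) and Drc (3), and 7 were named singly: Stoml3, Tmem212, Ccdc153, Ak7, Fam216b, Hydin and Foxj1. The family name Dnai matched no gene, since the annotation used here still carries the axonemal dynein intermediate chains as Dnaic1, Dnaic2 and other older symbols. The set was drawn up with the high values of several of these genes in PV libraries already known. The members were thus chosen by symbol after PV had been compared with SST and VIP, and their PV levels against the other subtypes are given as a description, without a test.

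The libraries came from 4 neuronal subtypes with 6 libraries each: EXC (excitatory neurons), PV, SST and VIP (inhibitory neurons named for parvalbumin, somatostatin and vasoactive intestinal peptide). Dissociated cells were gated as DAPI-negative and positive for GFP or tdTomato, depending on the transgenic reporter line. The gate was thus set to select live cells carrying a reporter, and it does not measure how pure a group was. The labels do not give the reporter line, driver, strain or exact age for any group, nor the number of mice behind a library, so a p-value measures the spread between these libraries only, which may be partly technical. PV had 3 male and 3 female libraries, EXC and SST had 4 male and 2 female each, and VIP had 2 male and 4 female. Replicate numbers follow the order of the samples within each subtype, since the labels give none.

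Total counts ranged from 1548907 to 15978459 reads per library, with the lowest in PV replicate 6. The labels give each library a pool ID and do not say what was pooled. The 4 subtypes were not evenly spread over these pools. All 6 PV and 5 EXC libraries were in pool 6188, SST and VIP were in pools 7098, 7099 and 7100, and EXC replicate 3 was in pool 7099. Reads from mitochondrially encoded genes made up 14.4% to 52.9% of PV libraries and at most 16.6% of any other library. The namesake genes matched the labels in group means, with 201 CPM of Pvalb in PV, 1158 of Sst in SST, 1727 of Vip in VIP and 532 of Slc17a7, the vesicular glutamate transporter of cortical excitatory neurons, in EXC. Levels are given as CPM, counts scaled to the size and composition of each library, unless RPKM, which also divides by gene length, is named.

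A motile cilium is built on an axoneme, a ring of doublet microtubules around a central pair. Dynein arms, made of Dnah heavy chains with smaller chains, slide the doublets, while radial spokes (Rsph), the nexin-dynein regulatory complex (Drc), central pair proteins (Hydin, Spef2) and proteins of the doublet wall (tektins and several Cfap proteins) shape the beat. In brain, beating cilia are carried by ependymal cells of the ventricle wall and by choroid plexus epithelium, whereas neurons carry a single primary cilium that lacks the motility machinery. The transcription factor Foxj1 drives the motile programme, together with RFX factors, which bind a sequence called the X-box.

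The promoter sequences of the set are shown first, for members of any level. RefSeq (GRCm38.p6) gave 300-base start regions, from 250 bases before to 50 after a transcript start, for 63 of the 74 members. An X-box was searched on both strands as GTNNCC followed, after 1 to 4 bases, by GNAAC, and 20 of the 63 members (31.7%) held at least 1, against 5.94% of 27025 genes with such a region. The forkhead heptamer TGTTTAC, also on both strands, was in 6 of 63 members (9.52%) against 4.05% of genes. A match is a description of the letters and not a bound site. Genes with an X-box match included Hydin, with 464 reads in PV, and also Tekt2, with 1 read in PV. The matches were not set against how the members move together. In the stretches below, which all lie before the start of the transcript used, the X-box is in capitals in the first 4 and the forkhead heptamer in the last 2. That start is not always the start of the gene. The Ak7 stretch lies inside the gene, which begins at 105703858. The Hydin and Cfap44 stretches reach past the gene starts, at 110266968 and 44394742. Hydin and Fam216b stand for the genes highest in PV, Cfap44 for those also found in EXC, and Cfap20dc for those with their highest mean in SST. The coordinates are chr8:110266916-110266976 (plus strand) for Hydin, chr14:78089058-78089150 (minus) for Fam216b, chr16:44394732-44394798 (plus) for Cfap44, chr14:8666339-8666432 (minus) for Cfap20dc, chr3:53488575-53488661 (plus) for Stoml3 and chr12:105705811-105705897 (plus) for Ak7.
Hydin: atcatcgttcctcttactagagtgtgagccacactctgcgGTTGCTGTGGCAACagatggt
Fam216b: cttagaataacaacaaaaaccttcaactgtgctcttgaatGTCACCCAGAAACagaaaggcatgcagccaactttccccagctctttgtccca
Cfap44: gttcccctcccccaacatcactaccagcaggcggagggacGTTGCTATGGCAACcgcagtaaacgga
Cfap20dc: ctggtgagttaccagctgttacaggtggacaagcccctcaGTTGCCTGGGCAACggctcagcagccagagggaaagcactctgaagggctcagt
Stoml3: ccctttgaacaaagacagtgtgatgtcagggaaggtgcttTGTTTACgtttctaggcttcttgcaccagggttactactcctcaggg
Ak7: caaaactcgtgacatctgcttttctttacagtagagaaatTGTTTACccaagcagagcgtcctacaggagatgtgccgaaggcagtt

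The members fell into groups of very different level. Of the 74, 52 had enough reads to be tested and 22 did not, among them Tekt2, Tekt3, Tekt4, Dnah8, Rsph6a and Cfap97d1, which had at most 50 reads outside PV and at most 17 in PV. The group mean was highest in PV for 54 members, in EXC for 8, in VIP for 7 and in SST for 5. For 22 members (20 that passed the filter and 2 that did not), each of the 6 PV libraries lay above all 18 others, where 4.01% of all tested genes did so. This count comes from the contrast on which the set was proposed and is read no further.

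**Figure D1:**
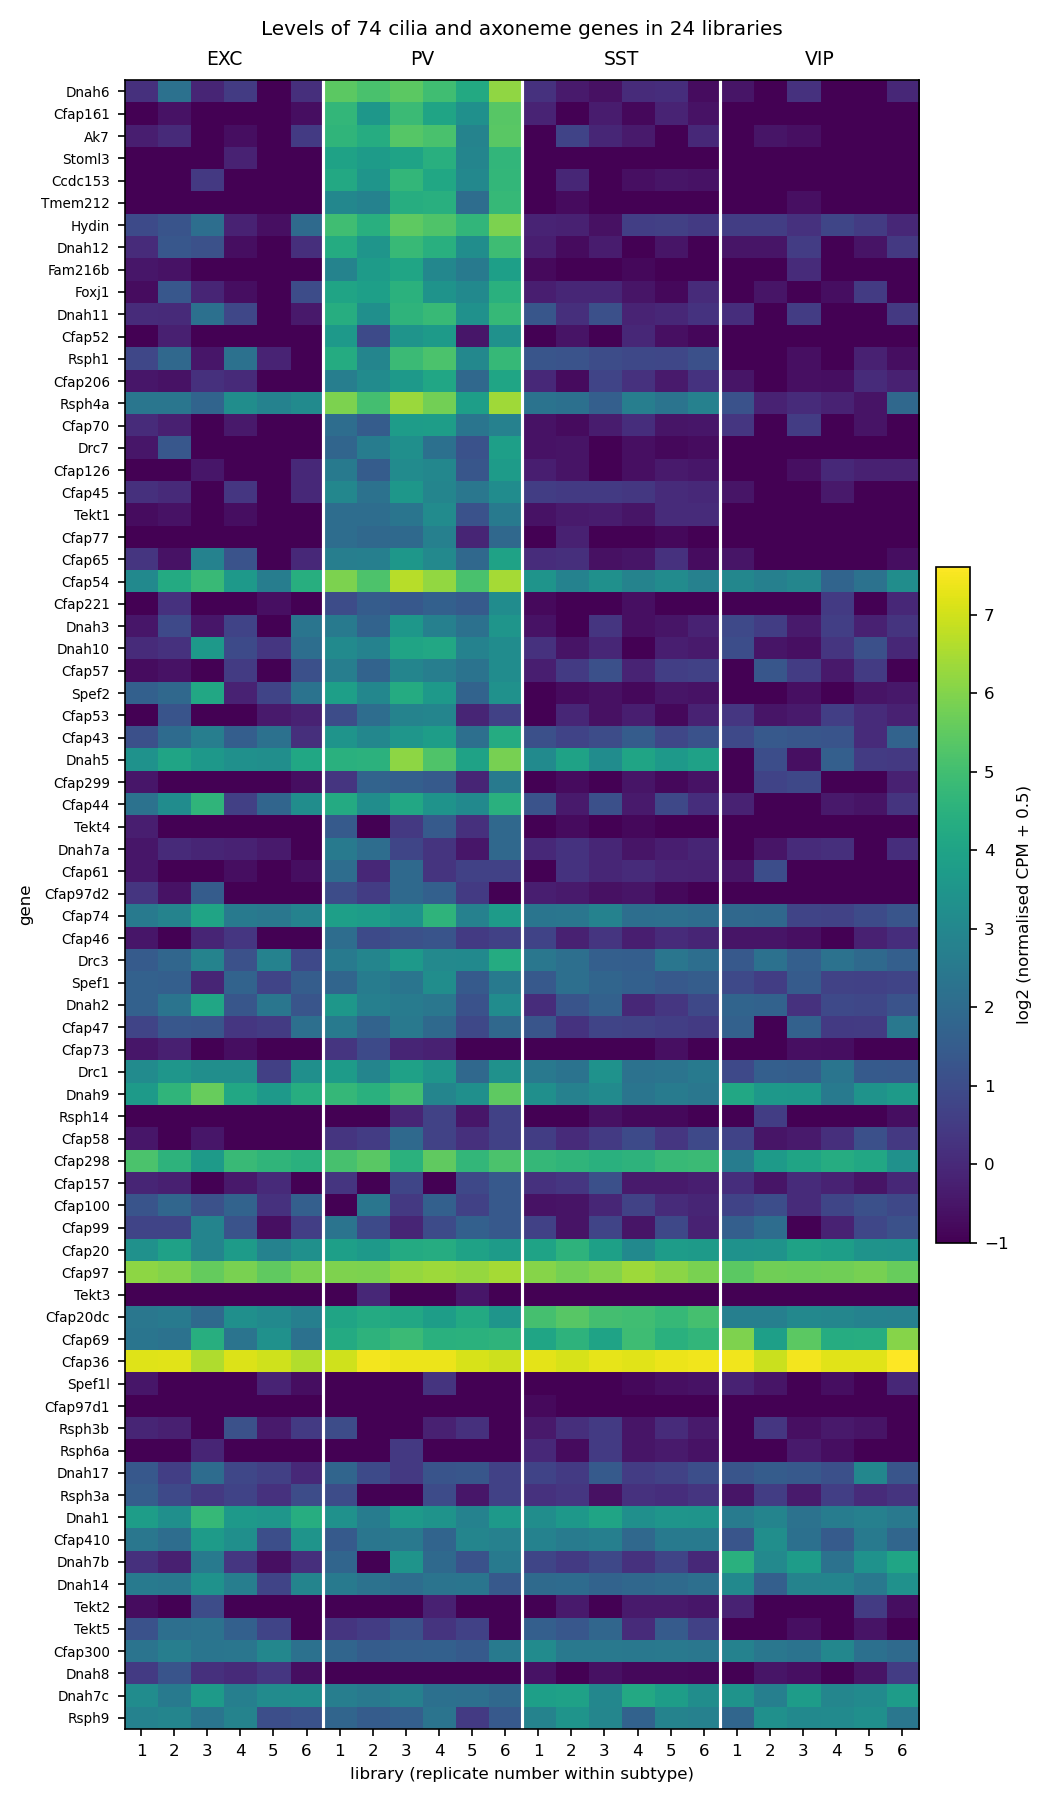
Level of each of the 74 genes (rows, ordered by the PV excess over the mean of the other subtypes) in the 24 libraries (columns, by subtype and replicate number), as log2 of normalised CPM + 0.5. The upper rows are bright in the 6 PV libraries and dark elsewhere, whereas Cfap36 and Cfap97 are bright in all 24.

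Foxj1, the regulator, was counted at 15.7, 14.1, 22.2, 10.4, 8.08 and 21.5 CPM in PV replicates 1 to 6. The highest of the 18 other libraries had 2.04 CPM, and the EXC, SST and VIP means were 0.703, 0.339 and 0.207. Every PV library thus stood above every other library, with a ratio of normalised reads of 35.4 (95% exact counting interval 26.4 to 48.1). Such an interval holds counting error alone and says nothing of how libraries vary.

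The other genes named singly were close to 0 outside PV, apart from Hydin. Stoml3, a stomatin-family membrane protein, was at 14.9, 12.7, 15.5, 21.1, 6.99 and 24.7 CPM in PV replicates 1 to 6, at 0.391 CPM in EXC replicate 4 and without a read in the remaining 17 libraries. Tmem212 had 7.47, 6.56, 20.1, 21.1, 3.71 and 26.8 CPM in PV and 2 reads in all 18 other libraries. The low and high PV libraries were the same for both genes, with replicate 5 lowest and replicate 6 highest. Ak7, an adenylate kinase of cilia, ran from 6.77 to 41.9 CPM in PV (mean 27.9 ± 13.5, SD, n = 6) and reached 1.16 at most elsewhere. Ccdc153 was at 17.5 ± 7.43 CPM and Fam216b at 10.4 ± 4.52 CPM in PV (SD, n = 6), with maxima elsewhere of 0.846 and 0.533 CPM. The levels of these genes in PV replicate 5, the deepest PV library, were the lowest of the 6 for Stoml3, Tmem212, Ak7, Ccdc153 and Fam216b alike.

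The dynein heavy chains divided by gene. Dnah5, Dnah9, Dnah11, Dnah17 and Dnah8 are outer arm chains, and most of the others belong to inner arms. Dnah6 had 42.6, 35.1, 42.8, 31.1, 18.3 and 73.0 CPM in PV replicates 1 to 6, against at most 4.09 CPM elsewhere. Dnah12 (19.6 ± 8.63 CPM in PV, SD, n = 6) and Dnah11 (19.6 ± 8.14) also had no overlap with other libraries, whose maxima were 2.04 and 4.02 CPM. Dnah5 was highest in PV, with 21.7, 23.0, 70.9, 37.4, 15.1 and 56.9 CPM, a mean of 37.5, against means of 12.3 in SST and 12.2 in EXC. Only its lowest PV library overlapped with other subtypes. Dnah9 was as high in EXC (22.4 CPM) as in PV (23.2 CPM), and Dnah1, Dnah7b, Dnah7c, Dnah14, Dnah17 and Dnah8 had a lower mean in PV than in at least 1 other subtype. Dnah8 had no read in PV. Dnah7a, Dnah7b and Dnah7c are close copies of each other, and reads may have been shared between them in ways the deposited counts do not show.

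Central pair and radial spoke genes were next. Hydin, a giant central pair protein, was at 30.6, 21.1, 44.5, 37.4, 25.1 and 60.1 CPM in PV and at most 3.81 CPM elsewhere. Cfap54, of the central apparatus, had 65.9 ± 27.6 CPM in PV (SD, n = 6) with a highest value of 27.9 elsewhere, in EXC replicate 3, and the lowest PV library at 34.7. Spef2, of the central pair, was at 14.2, 7.50, 19.3, 11.8, 2.84 and 9.66 CPM in PV, a range that overlapped with EXC. Rsph4a, a radial spoke head protein, had 59.8, 32.3, 79.7, 54.0, 13.8 and 83.7 CPM in PV and at most 8.86 elsewhere. Rsph1, also of the spoke head, followed with 19.4, 7.03, 28.9, 35.5, 7.65 and 26.8 CPM against a maximum of 4.17. Rsph9, a spoke head protein too, went the other way in its means, with 2.55 CPM in PV and 4.74, 6.71 and 7.14 in EXC, SST and VIP.

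The remaining structures were the nexin-dynein regulatory complex, the tektins and other proteins of the doublet wall. Drc3, Drc1 and Drc7 had PV means of 9.86 ± 5.10, 9.68 ± 4.08 and 6.27 ± 4.57 CPM (SD, n = 6), and in all 3 the PV libraries overlapped with others. Among tektins, which run along the doublet wall, Tekt1 had 3.74, 3.75, 4.61, 8.51, 1.75 and 5.37 CPM in PV against at most 0.544 elsewhere. Tekt4 averaged 1.53 CPM in PV, Tekt5 was higher in EXC and SST than in PV, and Tekt2 and Tekt3 were near 0 throughout. Cfap161, a doublet wall protein, had 25.4, 11.2, 28.9, 15.9, 9.61 and 40.8 CPM in PV and at most 0.412 elsewhere. Cfap45, of the same structure, had 7.24 ± 2.59 CPM in PV (SD, n = 6) and at most 0.989 CPM elsewhere.

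Some members had reads in every library of all 4 subtypes. By RPKM, the scale on which genes can be compared, Cfap36 was the highest member in PV at 27.6 ± 3.91 (SD, n = 6). Cfap298, which takes part in dynein arm assembly, was next at 17.2 ± 4.63, and Tmem212 (11.5 ± 7.82), Stoml3 (10.9 ± 4.51) and Rsph1 (10.6 ± 6.01) followed, 3 values that did not differ beyond their spread. On the CPM scale Cfap36 had means of 126, 148, 156 and 161 in EXC, PV, SST and VIP, so that PV was not the highest. Cfap97 lay at 73.5 CPM in PV and 51.2 to 65.4 in the other subtypes, and Cfap298 at 34.0 in PV and 13.4 to 25.2 in the others. The value for Cfap298 is uncertain, because 46.2% of its exon bases are shared with a gene on the opposite strand and no source used here gives the strand setting of the counting.

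To follow the set as a whole, the 53 members with a mean under 5 CPM in each of EXC, SST and VIP were summed. The sum was 387, 278, 538, 470, 190 and 622 CPM in PV replicates 1 to 6, and rested on 518 to 1283 reads per library. It ranged from 21.6 to 86.7 CPM in EXC, 24.4 to 32.5 in SST and 20.9 to 27.6 in VIP, so that no PV library overlapped with another subtype. The choice of members fixes this direction. With 6 libraries each, PV averaged 414 ± 162, EXC 44.7 ± 22.8, SST 28.3 ± 2.94 and VIP 24.8 ± 2.78 (SD). Within pool 6188, the lowest PV library (190) lay above the highest of the 5 EXC libraries (51.8), whereas PV shared no pool with SST or VIP, so pool and subtype cannot be told apart there. In bulk libraries, a larger share of cells that express a gene and more RNA of it per cell cannot be told apart.

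**Figure D2:**
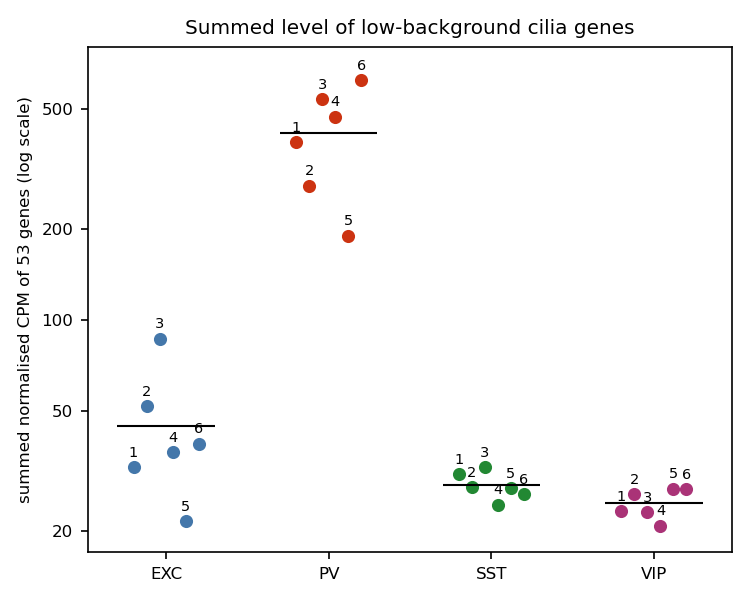
Summed normalised CPM of the 53 members that averaged under 5 CPM in each of EXC, SST and VIP, on a log axis, for each library (points, with replicate number) and the mean of each subtype (line). The 6 PV points lie between 190 and 622, and EXC replicate 3, at 86.7, is the highest of the other 18.

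Across the 6 PV libraries the members rose and fell together. The highest PV sum was 3.28 times the lowest. For the 31 summed members with at least 30 reads over PV, the median Pearson r between 2 genes over the 6 libraries was 0.71 (465 pairs, 99.4% of them positive), against 0.00 over 12167 tested genes with at least 30 reads and 0.00 over 7633 other genes in the same range of reads. All 31 had r above 0.5 with the sum of the other members, with a median of 0.84. Dnah12 (0.98), Cfap126 (0.98), Ccdc153 (0.98) and Ak7 (0.96) were at the top, while Foxj1 had 0.76 and Cfap221 was lowest at 0.52. These correlations describe 6 libraries, whose genes share depth and scaling.

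The 21 members left out of the sum did not all take part. Rsph4a (r = 0.97 with the sum), Cfap54 (0.95), Dnah1 (0.91) and Dnah5 (0.91) moved with it. Cfap36 (-0.06), Dnah7c (0.09) and Cfap298 (0.12) did not, and Dnah14 (-0.56) and Cfap20dc (-0.71) ran against it. The genes outside the set whose log2 level was most like the sum, among 9874 with at least 5 CPM in PV, were Dkk3 (r = 0.99), Pcp4, Timp3, Slc2a1, Ppp1r9b, Ctxn1, Ralgds, Smc4, Fth1 and Apoe (0.98). These 10 were picked as the highest of 9874 over 6 libraries, and they are a description.

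**Figure D3:**
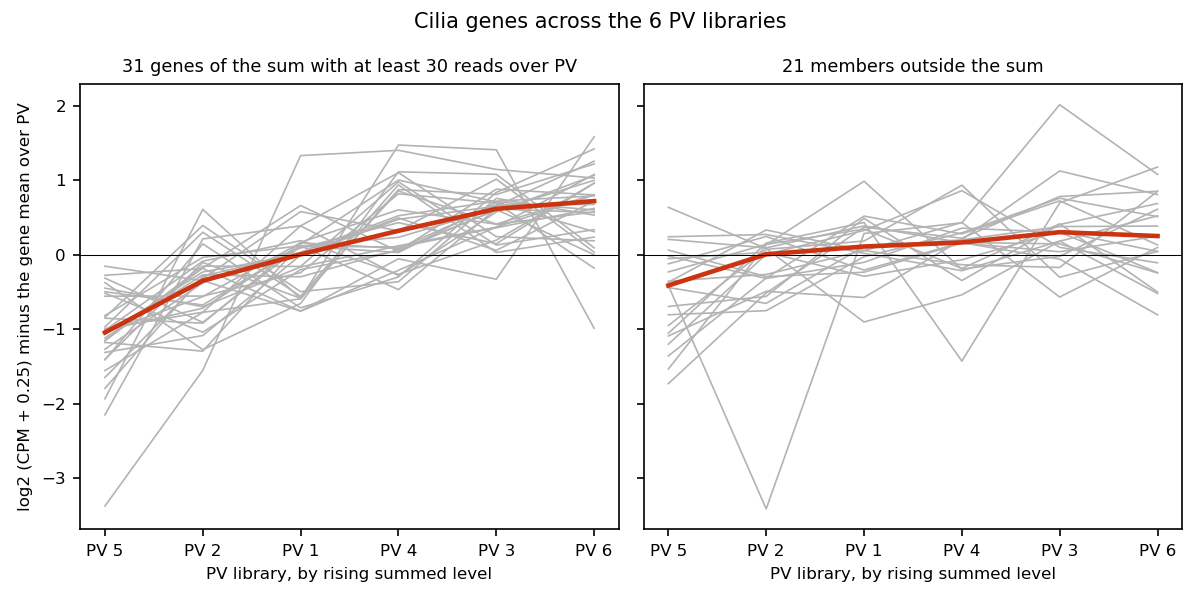
Log2 level of each gene in the 6 PV libraries minus its PV mean (grey lines; the red line is the median), with libraries ordered by their summed level; left, 31 genes of the sum, right, the 21 members outside it. The grey lines on the left rise from replicate 5 to replicate 6, and those on the right scatter more around 0.

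The summed level was set beside 10 other measures of the PV libraries, with exact two-sided permutation tests over all 720 pairings, which cannot give a p below 0.00139. Markers of ependymal cells that are not part of the axoneme (12 genes, among them Rarres2, Mia, Tm4sf1, Sox9 and Aqp4) summed to 217, 171, 370, 249, 108 and 331 CPM in replicates 1 to 6. They followed the cilia sum with Pearson r = 0.95 (exact permutation p = 0.00972, adjusted over the 10 measures 0.0324) and Spearman rho = 0.94 (p = 0.0167, adjusted 0.0556), and with r = 1.00 after the 2 libraries with the farthest marker sums, replicates 3 and 5, were left out. The same libraries that were high in cilia genes were high in these markers. The call on r was lost when any 1 PV library was left out, with r from 0.90 to 1.00. Markers of microglia (r = 0.90, rho = 0.94) and of endothelial and mural cells (r = 0.89, rho = 0.94) passed the same threshold on r (exact permutation, adjusted p = 0.0324 for each) and missed it on rho (adjusted 0.0556 for each). Without their 2 farthest libraries, replicates 5 and 6, r was 0.86 and 0.68.

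The other measures did not pass: astrocyte markers (r = 0.86, exact permutation, adjusted p = 0.0903), the share of mitochondrially encoded reads (r = 0.75, 0.156), total reads (r = -0.68, 0.199), Pvalb (r = -0.67, 0.212), choroid plexus markers (r = 0.46, 0.495), oligodendrocyte markers (r = 0.16, 0.794) and precursor markers (r = -0.14, 0.794). After the 2 farthest libraries of each measure were left out, r was 0.99 for choroid plexus, 0.84 for precursor, 0.56 for astrocyte and -0.38 for oligodendrocyte markers. The choroid plexus, precursor and oligodendrocyte values thus depend on which libraries are kept. For the mitochondrial share, total reads and Pvalb it was -0.11, 0.43 and -0.68. Their Spearman adjusted p-values ran from 0.117 to 0.919. Pvalb itself was at 178, 207, 195, 216, 232 and 178 CPM in replicates 1 to 6, highest in replicate 5, where the cilia sum was lowest. All 6 PV libraries were in 1 pool, so no other batch was available to compare. The part of other cells in the cilia level was not tested.

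**Figure D4:**
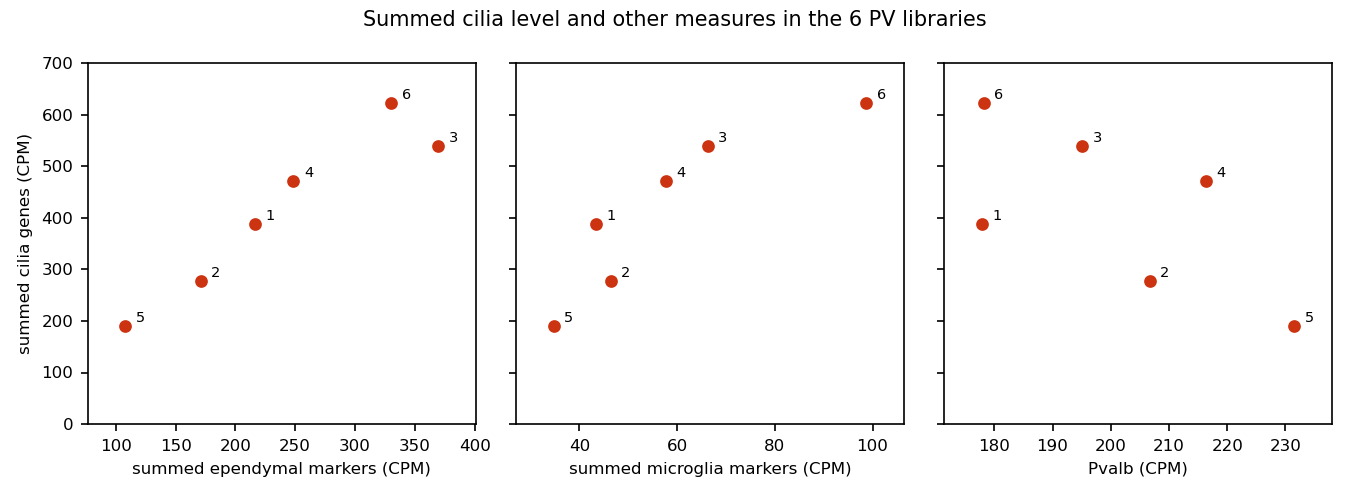
Summed cilia level (CPM) of the 6 PV libraries (points, with replicate number) against summed ependymal markers outside the axoneme, summed microglia markers and Pvalb, all in CPM. Replicate 5 is lowest and replicates 3 and 6 are highest in cilia genes and in both marker sums.

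Members were tested in the contrasts that did not choose them, with edgeR's quasi-likelihood test over 14890 genes and Benjamini-Hochberg adjustment at 0.05. In EXC against the mean of SST and VIP, 19 of 52 tested members were higher and 4 were lower, beside 21.8% and 17.9% of all tested genes. The 23 members called make up 44.2% of those tested, near the 39.7% of all genes called in either direction, with more of them on the higher side. The median log2 change of the members was 0.75, against 0.04 over all genes. Several tested members near 0 outside PV passed the filter through PV. Among them were Ak7, with 14 reads in EXC and 31 in SST and VIP, and Ccdc153, with 4 and 13. The share called and the median rest in part on such genes and are a description. SST and VIP are also the controls of the PV contrast, and these values are not read against the PV values.

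Spef2 had the largest change. It was at 2.60, 3.23, 17.6, 0.391, 1.19 and 4.41 CPM in EXC replicates 1 to 6, while no SST or VIP library passed 0.240 CPM, so the groups did not overlap. The log2 fold change was 5.18 ± 0.64 (SE, edgeR adjusted p = 2.22e-07), and 4.25 without EXC replicate 3. Cfap44, which tethers an inner dynein arm to the doublet, had 4.23, 8.68, 24.3, 1.04, 3.04 and 8.83 CPM in EXC and up to 1.81 in SST and 0.719 in VIP. Its log2 fold change was 3.89 ± 0.53 (edgeR adjusted p = 1.10e-06), and only its lowest EXC library fell within the SST range.

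Cfap65, Dnah10 and Dnah2 were higher by 3.02 ± 0.73, 2.26 ± 0.55 and 1.70 ± 0.45 on the log2 scale (SE, edgeR adjusted p = 0.0015, 0.00156 and 0.00333). In each of them EXC replicate 3 was far above the other EXC libraries, at 6.56 against at most 1.82 CPM for Cfap65, 11.8 against 3.78 for Dnah10 and 16.7 against 4.76 for Dnah2. Without this library the changes were 1.94, 1.34 and 1.03 and each was still called. Dnah9, an outer arm chain, was at 12.4, 24.3, 48.6, 17.5, 11.9 and 19.9 CPM in EXC, against 4.62 to 9.23 in SST and 5.28 to 17.3 in VIP (log2 change 1.35 ± 0.31, edgeR adjusted p = 0.00107). Dnah1, Cfap54 and Cfap74 were higher by 0.93, 1.13 and 1.21 and, like the genes above, kept their call in every alternative run that tested them. Cfap65 was tested in 24 alternative runs, and Cfap44 and Cfap54 in 25.

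Dnah5, Tekt5 and Rsph4a were higher in EXC than in the mean of SST and VIP (log2 1.91, 2.64 and 1.46). Their VIP means, 0.995, 0.0529 and 1.08 CPM, were the lowest of the 4 subtypes. With the pool as a covariate all 3 lost their call, Dnah5 at -0.17 and Rsph4a at 0.43, while Tekt5 had a larger change of 4.07 (edgeR adjusted p = 0.114). The calls of Drc7, Dnah6, Dnah12, Rsph1, Hydin, Drc1 and Cfap100 depended on which libraries were kept. Drc7 rested on 14 EXC reads and was at 2.04 CPM in replicate 2 and at most 0.217 in the other 5, and Drc7, Dnah6, Rsph1, Drc1 and Cfap100 lost their call without EXC replicate 2. Hydin did so without replicate 3 or 6.

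Of the 4 lower members, Cfap69, a central apparatus protein also found in cilia of olfactory neurons, had 4.56, 4.26, 20.7, 4.43, 9.65 and 4.16 CPM in EXC, against 15.3 to 30.4 in SST and 13.9 to 65.0 in VIP. It fell by 1.90 ± 0.37 on the log2 scale (SE, edgeR adjusted p = 0.000165), and EXC replicate 3 alone lay inside the range of the other 2 subtypes. With the pool as a covariate the call was lost and the change was 0.24 (edgeR adjusted p = 0.815). Cfap20dc, a relative of the inner junction protein Cfap20, fell by 1.28 ± 0.19 (edgeR adjusted p = 4.70e-06), and the EXC libraries, from 3.38 to 9.25 CPM, overlapped with VIP. Dnah7b (fell by 1.58) and Cfap36 (fell by 0.32) lay close to the threshold, with edgeR adjusted p = 0.0423 and 0.0434.

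EXC replicate 3, the EXC library in pool 7099, was the highest EXC library for 21 of the 38 members with a mean of at least 1 CPM in EXC. Without it, 19 members were called higher and 5 lower, and 21 of the 23 calls were made in the same direction. Marker genes of several other cells also stood higher in EXC than in the mean of SST and VIP. These were 7 of 10 tested astrocyte markers, 6 of 6 oligodendrocyte, 6 of 7 microglia and 7 of 9 endothelial and mural markers, with none lower. Of all tested genes, 21.8% were higher and 17.9% lower. The astrocyte sum averaged 1752 CPM in EXC, 1316 in VIP and 285 in SST. Choroid plexus markers went both ways, with 2 of 8 higher and 3 lower, and the 1 tested oligodendrocyte precursor marker was lower. Of 10 tested ependymal markers outside the axoneme 2 were higher and 1 lower. Their sums were 14.8 to 220 CPM in EXC, 24.4 to 67.4 in SST and 68.2 to 122 in VIP. The part of these cells in the EXC values was not tested.

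SST and VIP differed in 16 members, with 13 higher in SST and 3 lower out of 52, beside 14.6% and 16.7% of all tested genes. Members were called as often as genes in general, 30.8% against 31.3% in either direction. Dnah5 had 8.16, 14.9, 8.61, 15.7, 11.8 and 14.8 CPM in SST and 0, 1.57, 0.133, 2.51, 0.920 and 0.839 in VIP. The groups did not overlap, and the log2 fold change was 3.81 ± 0.47 (SE, edgeR adjusted p = 5.03e-07). Cfap20dc was likewise apart, with 26.9 to 40.6 CPM (median 32.8) in SST and 6.02 to 7.60 (median 6.55) in VIP (log2 2.27 ± 0.22, edgeR adjusted p = 6.41e-09).

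Several genes at low level had reads in SST and next to none in VIP. Tekt5 had 137 reads in SST and 2 in VIP (ratio 34.5, 95% exact counting interval 9.36 to 288), Rsph1 had 122 and 4, Cfap45 had 57 and 3, Tekt1 had 28 and 0, and Cfap161 had 17 and 0. Cfap45, Tekt1 and Cfap161 reached at most 0.989, 0.544 and 0.412 CPM outside PV and passed the filter through PV. Rsph4a was at 2.52 to 6.42 CPM in SST and 0.184 to 3.23 in VIP (log2 2.10 ± 0.50, edgeR adjusted p = 0.00215). Dnah1, Cfap298, Cfap74, Drc1 and Cfap97 were higher in SST by 0.92, 0.93, 0.99, 1.16 and 0.42, of which Cfap74, Drc1 and Cfap97 lost their call when single libraries were left out.

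Dnah7b was the clearest member on the VIP side. It had 21.8, 7.83, 13.2, 4.27, 9.93 and 16.1 CPM in VIP and 0.490 to 1.34 in SST, without overlap, and fell by 3.79 ± 0.68 in SST on the log2 scale (SE, edgeR adjusted p = 0.00012). Its near copies did not share this, as Dnah7c was at 7.42 to 17.9 CPM in SST and 6.07 to 13.1 in VIP (log2 0.38 ± 0.27, edgeR adjusted p = 0.297). Dnah14 and Dnah17 (fell by 0.96 and 1.20) were near the threshold, with edgeR adjusted p = 0.0455 and 0.0486. Cfap69 did not pass (log2 -0.77 ± 0.38, edgeR adjusted p = 0.122), with VIP replicates 1, 3 and 6 at 61.4, 42.9 and 65.0 CPM and replicates 2, 4 and 5 at 13.9, 19.7 and 20.1.

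**Figure D5:**
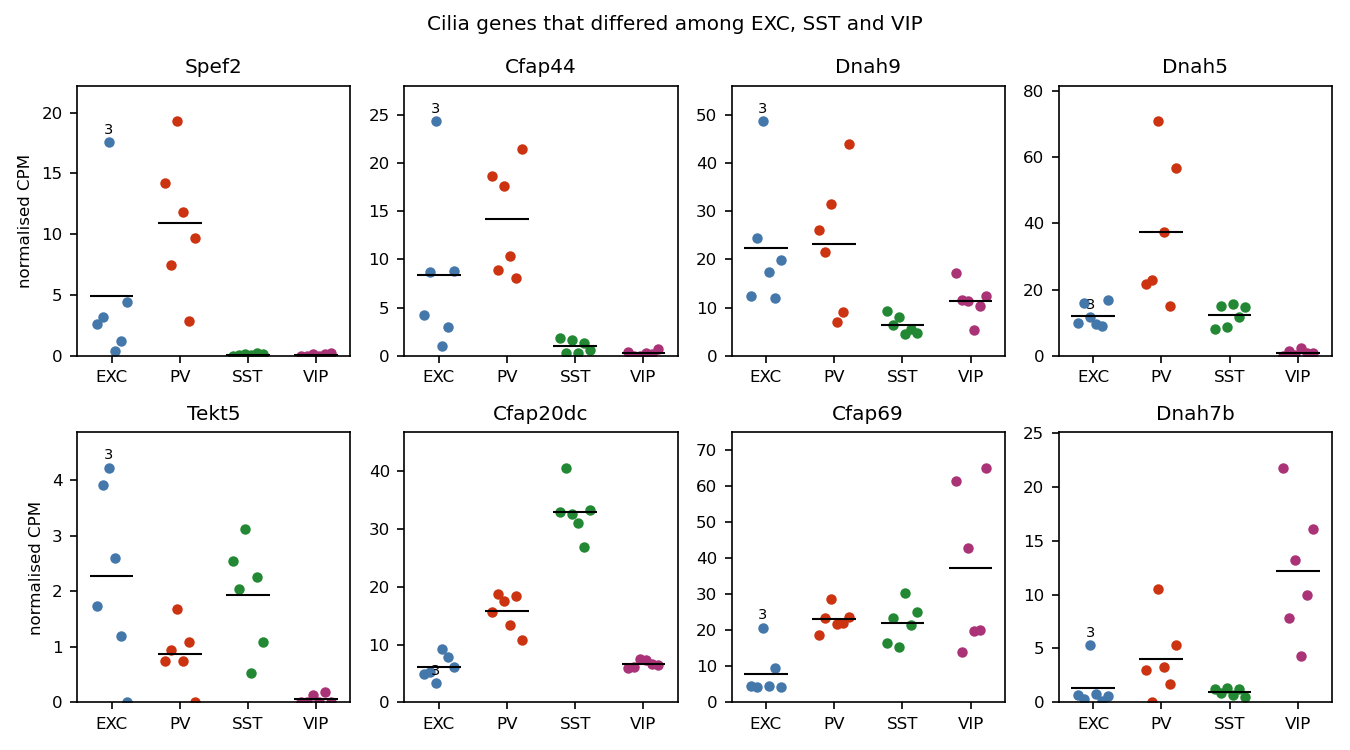
Normalised CPM of 8 members that were called in a contrast outside PV, by library (points; EXC replicate 3 is marked 3) with the mean of each subtype (line). Spef2 and Cfap44 are near 0 in SST and VIP, Dnah5 and Tekt5 in VIP, Cfap20dc is highest in SST and Dnah7b in VIP.

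No member was called by sex. Between female and male libraries, with subtype in the model, edgeR called 0 of 52 members (4 at an unadjusted p under 0.05: Dnah10, Cfap74, Cfap97 and Drc7), beside 0.0403% of all tested genes. Within PV, with 3 libraries of each sex, 0 members were called and 0 had an unadjusted p under 0.05, beside 0.0201% of genes. DESeq2 called 0 in both. In simulated counts of this design, 64.6% of 2-fold changes were found between the sexes and 11.2% within PV, so a change of that size within PV would mostly be missed.

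Other genes of the cilium, which are no members, were counted in the PV contrasts as 5 lists. The lists were written with the PV result known, and genes near 0 outside PV passed the filter through PV, so the counts are a description and no independent evidence of a direction. Of 50 other axonemal genes 33 passed the filter, and of these 25 were higher in PV than in the mean of SST and VIP and 1 was lower, beside 19.3% and 21.6% of all tested genes. The list's median log2 change was 2.12, against -0.08 over all genes. Sntn, an apical protein of motile cilia, was at 8.75 CPM in PV and at most 0.08 in the other group means. Ccdc146 (18.6 CPM in PV against 0.18 in SST and 0.81 in VIP) and Spag16, a central pair protein (11.7 against 0.15 and 0.73), showed the same order. Dnal1, a light chain of the outer arm, was the exception, with 76.8 CPM in PV and 126 and 91.0 in SST and VIP (fell by 0.49). Against EXC, 24 of the 33 were higher in PV and 2 lower, beside 20.3% and 25.6% of genes, and both contrasts share the PV libraries.

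The dynein intermediate chains under older symbols were mostly too low to test, but had the same pattern of levels: Wdr63 averaged 5.93 CPM in PV and at most 0.04 elsewhere, Dnaic2 3.98 and at most 0.25, Dnaic1 3.70 and at most 0.81, and Casc1 2.59 and at most 0.36. Wdr78, which passed the filter, was at 17.9 CPM in PV and 17.7 in EXC and was not called.

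Upstream factors did not follow as a list. Of 8 tested ciliogenesis regulators 1 was higher in PV than in SST and VIP (Rfx4, 6.43 CPM against 2.07 and 0.45) and 4 were lower (E2f5, Rfx1, Plk4 and Rfx3). Rfx3, an X-box factor, was at 70.7 CPM in PV, 141 in SST, 117 in VIP and 1078 in EXC. Trp73 and Myb, which act in multiciliated cells, averaged 3.33 and 6.25 CPM in PV and at most 0.30 and 0.71 elsewhere, and were not tested. Of 9 tested dynein assembly factors 4 were called higher and 0 lower by edgeR, and 5 had an unadjusted p under 0.05, led by Zmynd10 (means of 4.69 CPM in PV and of 0.90 and 0.06 in SST and VIP). Of all tested genes, 19.3% were higher and 21.6% lower in that contrast. Against EXC, 1 regulator was higher in PV and 5 were lower. For assembly factors it was 1 higher and 2 lower, beside 20.3% and 25.6% of genes.

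Genes shared with primary cilia were counted in the same way. Of 30 intraflagellar transport genes, 7 were higher and 1 lower in PV than in SST and VIP, with a median log2 change of 0.18, and of 30 tested genes of the BBSome and the primary cilium 3 were higher and 3 lower, with a median of -0.10 (all genes 19.3% higher and 21.6% lower, median -0.08). Against EXC, 6 transport genes were higher and 5 lower, and 6 and 4 of the primary cilium list (all genes 20.3% and 25.6%). Ift27, a small GTPase of the transport train, was at 27.2 CPM in PV and 2.02, 3.04 and 2.73 in EXC, SST and VIP.

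Marker genes of ciliated and neighbouring cells were counted in the same contrast. These lists too were written with earlier results known, and the counts are a description. Of 10 tested ependymal markers outside the axoneme 9 were higher in PV than in SST and VIP and 0 lower by edgeR (9 had an unadjusted p under 0.05), beside 19.3% and 21.6% of all tested genes. Against EXC, 6 were higher and 0 lower, beside 20.3% and 25.6% of genes. Their sums were 108 to 370 CPM in PV and at most 122 in any SST or VIP library. In EXC they ran from 14.8 to 220 CPM and overlapped with PV. Rarres2 was at 24.9 CPM in PV and at most 3.69 in the other means, Tm4sf1 at 21.1 and at most 2.41, and Aqp4 at 41.6, with 18.3 in EXC. Aqp4 and S100b are also in the astrocyte list, of which 5 of 10 were higher and 0 lower. Against EXC, 0 of the astrocyte markers were higher and 1 was lower. The astrocyte sum averaged 535 CPM in PV, 285 in SST, 1316 in VIP and 1752 in EXC. Every gene of the ependymal list had reads in PV, EXC and VIP alike, and only Calml4 had none in SST. Of 8 tested choroid plexus markers 1 was higher, 3 were lower and 4 were not called, and Ttr, the most abundant gene of that tissue, averaged 11.5 CPM in PV. The part of these cells in the PV level of the cilia genes was not tested.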

How the data were processed

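Each library was deposited by the authors as raw read counts per gene with RPKM values beside them, per the file headers; alignment was with GSNAP to GRCm38, per the submitters' processing notes, and no source used here names the counter or its strand setting. Gene IDs were matched to symbols through RefSeq (31049) and GENCODE M21 (77). Counts were tested with edgeR 4.0.16 (R 4.3.3; filterByExpr by subtype, TMM, quasi-likelihood test, sex as a covariate, all 24 libraries, Benjamini-Hochberg at 0.05 over 14890 genes), and checked on simulated counts with 200 changed genes; DESeq2 1.42.0 was an alternative. In that check, 8-fold and 2-fold changes were found in 99.0% and 53.0% for EXC against SST and VIP, 93.8% and 46.9% for SST against VIP, 98.0% and 64.6% for sex, and 71.4% and 11.2% for sex within PV. SE is the log2 change divided by the root of F. CPM used TMM-scaled totals; 1 CPM stood for 0.932 to 18.4 reads. Members and lists were chosen with earlier results of these data known. Values per library are given for the genes named singly, for the 3 members of each family with the highest RPKM in PV and for members called outside the PV contrasts; of the other lists, genes with large changes are named, some chosen after their values were seen. Alternatives were other filters, scalings, covariates, pools and left-out libraries.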

Additional observations from a re-analysis of the deposited data

Results flagged for a closer look

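For each named member in each subtype where it averaged at least 1 CPM, and for the summed level, the highest or lowest of the 6 libraries was compared with the others by Dixon's test, and 16 of 110 groups had a library far from the rest. Chance flags about 1 in 20 independent groups of normal values. These groups share libraries, many hold low counts, and some members were named because they were called in EXC. The count is therefore not read against that rate. Of these, 9 were EXC replicate 3: Spef2 at 17.6 CPM (the other EXC libraries reached 4.41), Cfap44 at 24.3 (8.83), Cfap65 at 6.56 (1.82), Cfap69 at 20.7 (9.65), Cfap74 at 15.9 (6.81), Dnah10 at 11.8 (3.78), Dnah2 at 16.7 (4.76), Dnah7b at 5.29 (0.782) and Dnah9 at 48.6 (24.3). In EXC replicate 2, Dnah6 was at 4.09 CPM, with the other EXC libraries at most at 0.912.

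Drc1 stood apart in 3 subtypes, at 1.06 CPM in EXC replicate 5 (the others from 8.46), 9.95 in SST replicate 3 (the others up to 5.28) and 4.65 in VIP replicate 4 (the others up to 2.55). The remaining values were Spef1 at 2.27 CPM in VIP replicate 3, Dnah1 at 15.9 in SST replicate 3 and Dnah17 at 7.36 in VIP replicate 5.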

How the results depend on the processing

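In EXC against SST and VIP, 11 members were higher and 1 lower with the pool as a covariate, a fit in which EXC replicate 3 alone links EXC to the pools of VIP, and 12 were higher with only the groups compared. In the pool fit Cfap69 (0.24), Dnah5 (-0.17), Dnah7b (1.29), Drc7 (-0.41) and Rsph1 (-1.25) turned their direction on the log2 scale. The cause was not tested. Leaving out 1 library gave 13 to 21 higher and 2 to 5 lower members. In SST against VIP, 7 members were higher with the pool covariate, and 5 were lower with DESeq2, 1 with no filter and 1 with a filter of 1 CPM in 3 libraries; left-out libraries gave 11 to 13 higher and 1 to 2 lower.

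For the axonemal, regulator and assembly lists together, 30 genes were higher and 5 lower in PV than in SST and VIP; 46 were higher with the 1 CPM filter, which tests more low genes, and 15 higher and 2 lower with the pool covariate. Left-out libraries gave 30 to 36 and 4 to 5. For the transport and primary cilium lists together, 10 were higher, 4 with no filter and 4 with the pool covariate, and left-out libraries gave 6 to 10 higher and 2 to 6 lower. Against EXC, with only the groups compared, 15 in place of 26 axonemal, regulator and assembly genes and 7 in place of 12 transport and primary cilium genes were higher.

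The summed level was 93.1 in PV, 6.97 in EXC, 5.75 in SST and 4.05 in VIP in deposited RPKM, a different unit. SST was at 31.98 CPM without TMM, and SST and VIP at 34.1 and 29.995 with mitochondrially encoded genes left out of the library size. In PV replicates 1 to 6 the sum was 260, 215, 425, 398, 187 and 374 CPM without TMM, so that replicate 3 was highest. With mitochondrially encoded genes left out it was 476, 319, 653, 569, 218 and 795. In PV, microglia markers lost their call without TMM (r = 0.84) and with all members summed (0.87), and endothelial and mural markers without TMM (0.79). With 1 PV library left out, r ranged from 0.90 to 1.00 for ependymal, 0.27 to 0.99 for choroid plexus, 0.74 to 0.96 for astrocyte, 0.88 to 0.93 for microglia and 0.80 to 0.96 for endothelial and mural markers. The ependymal call was lost in every such run, and the microglia and endothelial calls in all but the run without replicate 4. Choroid plexus and astrocyte markers gained a call without replicate 4. For oligodendrocyte and precursor markers r ran from -0.68 to 0.53 and from -0.44 to 0.89. No paired analysis was possible because the labels give no replicate numbers. Depth limits the low members most, since 1 read was worth over 0.2 CPM in each PV library.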
